A study of Daphnia pulicaria with 8 samples.

Results

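Histone demethylases and histone methyltransferases were taken from the deposited gene table of Daphnia pulicaria, a freshwater water flea, as every gene whose name held jmjc, histone demethylation, lysine-specific demethylase, histone-lysine or SET and MYND, in any case. The rule found 278 of 33069 genes. Of these, 198 were classed by name as oxygen-using demethylases and 80 as methyltransferases. Some of the 198 were named only for a JmjC domain, a name that does not itself state demethylation. The study, titled for hypoxia and the metabolic phenotype, sequenced RNA of whole adults from Black, Doe, Long and Round, which are lakes, and of a Red and a Pale phenotype. There was 1 Red and 1 Pale library from every lake, so each phenotype had 4 libraries and no lake and phenotype was sampled again. The animals of a library were pooled, with 30 animals per lake according to the labels, which do not say whether that number is per phenotype. The labels name no treatment, age or clone, and a Red and a Pale library of 1 lake shared only the lake.

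Histone methyltransferases place methyl groups on lysines of histone tails, using S-adenosylmethionine as donor. Jumonji C (JmjC) demethylases remove them in a reaction that consumes molecular oxygen and 2-oxoglutarate with iron as cofactor, and some mammalian members lose activity when oxygen is low. A transcript level reports neither the enzyme's activity nor the methylation of any histone.

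Levels were deposited as FPKM, that is, fragments counted relative to transcript length and to the size of the library. The number of reads behind each library is unknown, so no counting interval is given. FPKM summed to between 543804 and 582444 per library, and a single uncharacterized gene held 41.0% to 48.1% of that sum, its Red share being the larger in every lake. In whole animals a lower share of a cell type and less RNA per cell cannot be told apart. Errors below are SD over the n = 4 libraries of a phenotype for FPKM, and limma standard errors for differences on the log2(FPKM + 1) scale, a scale that understates changes of low genes.

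Most of the demethylase names stood at very low levels. The name Jmjc domain-containing histone demethylation protein, with its spelling variants, covered 179 of the 198 oxygen-using genes. The median of their mean levels was 0.07 FPKM, 38 of the 179 were at 0 FPKM in all 8 libraries, and 58 were above 0 in every library. Between 83 and 96 of them were above 0 in a Pale library and between 91 and 104 in a Red library. These ranges overlapped. Only 4 of the 179 reached a mean of 5 FPKM or more: Daplx7pEVm002234 (13.3 FPKM), Daplx7pEVm003190 (8.09), Daplx7pEVm005537 (5.79) and Daplx7pEVm007107 (5.52).

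Methyltransferase names were more widely detected. Among the 44 genes named SET and MYND, 34 were above 0 in every library, 1 was at 0 throughout and none had a mean of 5 FPKM. Among the 36 genes with a histone-lysine name, 22 were above 0 in every library and 7 averaged 5 FPKM or more. Genes averaging 1 FPKM or more over the 8 libraries entered the tests, which left 39 of the 198 oxygen-using genes, 43 of the 80 methyltransferases and 12865 genes in all. Just outside this limit lay a lysine-specific demethylase 4A gene, Daplx7pEVm059094, at 0.949 FPKM, and a SETDB1-B gene, Daplx7pEVm002262, at 0.958 FPKM. Just inside lay SMYD3, Daplx7pEVm009061, at 1.01 FPKM and the SET and MYND gene Daplx7pEVm002217 at 1.04 FPKM. Similar copies can share reads, so the split of FPKM among genes of 1 name is less certain than their sum.

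The summed FPKM of the oxygen-using demethylases was higher in the Red library of each of the 4 lakes. Pale libraries summed to 136.1, 135.7, 138.1 and 155.4, and Red libraries to 153.0, 159.0, 151.6 and 171.2, in the order Black, Doe, Long, Round. Round gave the highest sum of either phenotype, and the groups overlapped, because Round Pale exceeded Black Red and Long Red. Pale averaged 141.3 ± 9.46 and Red 158.7 ± 8.92 (SD, n = 4), and the geometric mean ratio over lakes was 1.12. The 179 genes of the large Jmjc name gave this difference, with 97.2 ± 8.87 FPKM in Pale, 115.0 ± 5.97 in Red and a ratio of 1.12 in Round, 1.14 in Long, 1.23 in Black and 1.26 in Doe. The other 19 oxygen-using genes summed to 44.1 ± 1.69 FPKM in Pale and 43.7 ± 4.43 in Red, with the Red library higher in 2 of 4 lakes.

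**Figure D1:**
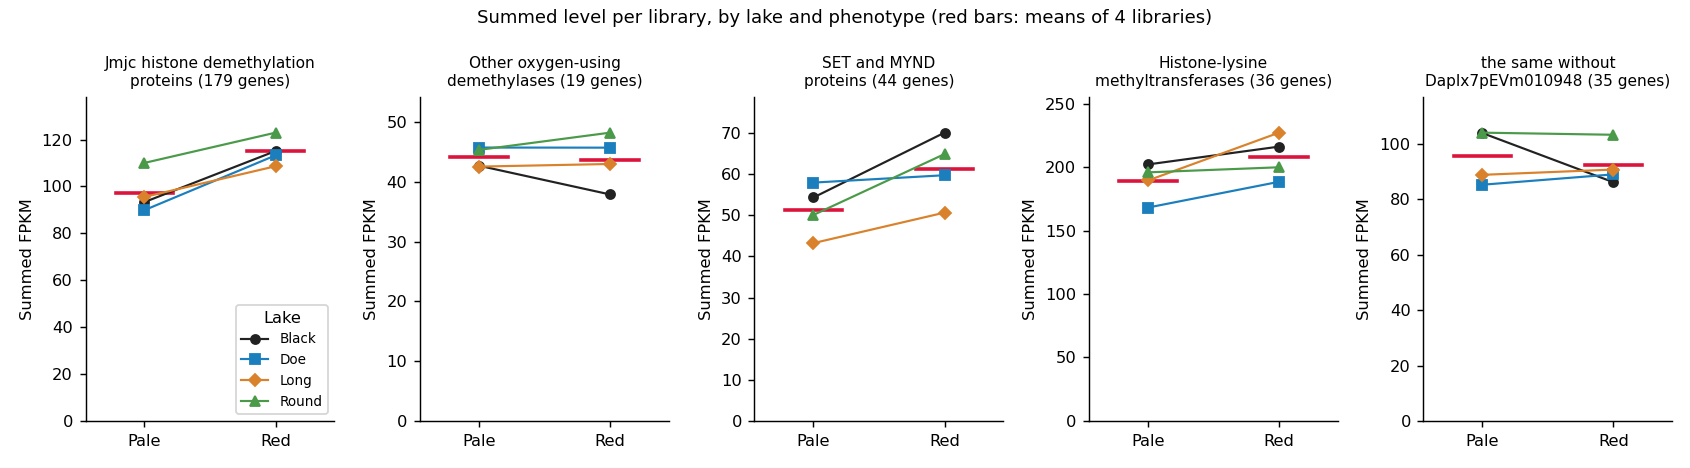
Summed FPKM of each class in the 8 libraries, with Pale and Red of a lake joined by a line, the lake given by colour and marker, and red bars at the means of 4 libraries. Lines slope upward in all 4 lakes for the Jmjc histone demethylation and the SET and MYND names, whereas the histone-lysine names slope upward in 2 of 4 lakes once Daplx7pEVm010948 is left out.

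No member of either class passed the test of Red against Pale. In limma with lake as a block and Benjamini-Hochberg adjustment over all genes tested, 0 of the 82 members passed an adjusted p of 0.05, as did 0 of 12865 genes (0.0%), and the smallest adjusted p of a member was 0.286. At an unadjusted p under 0.05, 4 members were higher in Red (2 of the oxygen-using class and 2 SET and MYND genes) against 2.89% of all genes, and 0 members were lower against 9.29%. Leaving out Doe gave 7 members beside 2.40% of all genes, and leaving out Round 6 beside 1.91%. Scaling by median-of-ratios size factors gave 11 beside 4.99%, in a setting that moved all genes upward, and quantile normalization gave 12 beside 6.25%. The fit left 3 residual degrees of freedom, and a member that missed the threshold is not shown to be equal in Red and Pale.

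The spread of differences lay higher in the demethylases than over all genes. The median Red minus Pale of the 39 tested oxygen-using genes was 0.14 on the log2 scale and 27 of them were above 0, beside 38.5% of all genes and a median of -0.08. Genes of the large Jmjc name had a median of 0.18, with 23 of 30 above 0, and the 9 others had a median of -0.03, with 4 above 0, which turned to 0.01 to 0.06 under the other 3 scalings. For the 43 methyltransferases the median was 0.06 and 25 were above 0, and without Round that median was 0.01. SET and MYND genes had a median of 0.10, with 16 of 23 above 0, and the genes with histone-lysine names had -0.03, with 9 of 20 above 0, which turned to 0.05 to 0.06 with 13 or 14 above 0 under the other 3 scalings.

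These shares were read against level and scaling, since low genes were more often higher in Red. Of all genes with a mean of 1 to 2 FPKM, 44.9% were above 0, and of those at 20 FPKM or more, 29.6% were. In the band of 1 to 2 FPKM, 14 of 20 genes of the large Jmjc name were above 0, and in the band of 2 to 5 FPKM 5 of 6 were, beside 40.8% of all genes there. Quantile normalization moved the median of all genes from -0.08 to 0.02 and the share of genes above 0 from 38.5% to 53.5%. Relative to the median of all genes, the oxygen-using median lay 0.20 to 0.22 higher and the methyltransferase median 0.12 to 0.14 higher under the 4 scalings used. Without the level limit, over 158 oxygen-using genes and 76 methyltransferases, the medians lay 0.062 and 0.063 higher.

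**Figure D2:**
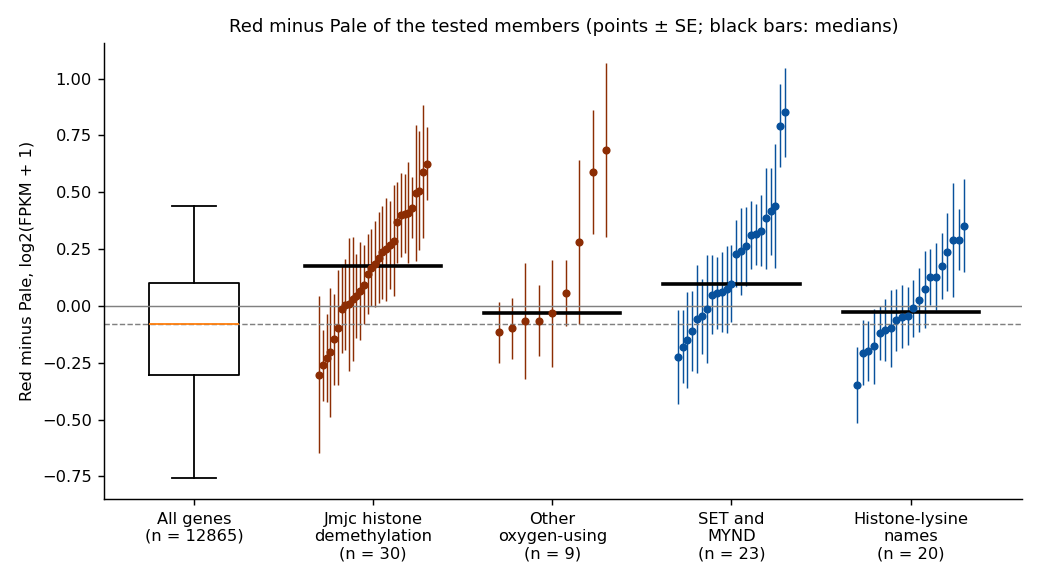
Red minus Pale on the log2(FPKM + 1) scale for the 82 tested members, as points with limma standard errors and black bars at class medians, beside a box for all genes tested (box from the 25th to the 75th percentile, whiskers at the 5th and 95th, dashed line at the median of -0.08). Most points of the large Jmjc name and of SET and MYND lie above 0, while histone-lysine names lie on both sides.

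The median of the whole demethylase class was above 0 and above that of all genes in each lake, which did not hold for the genes outside the large Jmjc name. The median Red minus Pale of the 39 oxygen-using genes was 0.17, 0.16 and 0.15 in Black, Doe and Long, and 0.03 in Round. The medians of all genes were -0.19, -0.02, -0.07 and -0.03, so relative to them the oxygen-using median lay 0.36 higher in Black, 0.18 in Doe, 0.23 in Long and 0.07 higher in Round. Genes of the large Jmjc name had medians of 0.31, 0.23, 0.22 and 0.06 in the order Black, Doe, Long, Round. The 9 other oxygen-using genes had -0.23, -0.0021, 0.12 and -0.022, in Black below the median of all genes. Of the 39 oxygen-using genes, the numbers above 0 were 23 in Black beside 31.1% of all genes, 22 in Doe beside 47.9%, 28 in Long beside 43.7% and 20 in Round beside 46.7%. For the 43 methyltransferases 27, 25, 25 and 29 were above 0 in the same order of lakes. SET and MYND genes had their widest majorities in Black, with 20 of 23 above 0, and Round, with 19 of 23, whereas in Doe 11 of 23 were. Of the 20 genes with histone-lysine names 14 were above 0 in Doe, and in Black 7 were (35.0%), near the share of all genes there. These contrasts between lakes rest on 1 pair of libraries each and were not tested.

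In all 4 lakes 15 of the 82 members had the higher value in Red and 4 had the lower value, beside 6.57% and 14.6% of all genes. The 15 were 5 genes of the large Jmjc name, 7 SET and MYND genes and 3 with histone-lysine names. Among them Daplx7pEVm002217, Daplx7pEVm009344 and SMYD3, Daplx7pEVm009061, averaged under 1 FPKM in Pale and passed the level limit only through Red. Groups that did not overlap, with every Red library above every Pale library, occurred in 4 members beside 1.62% of all genes. The reverse, with every Red library below every Pale library, occurred in 0 members beside 4.45%.

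**Figure D3:**
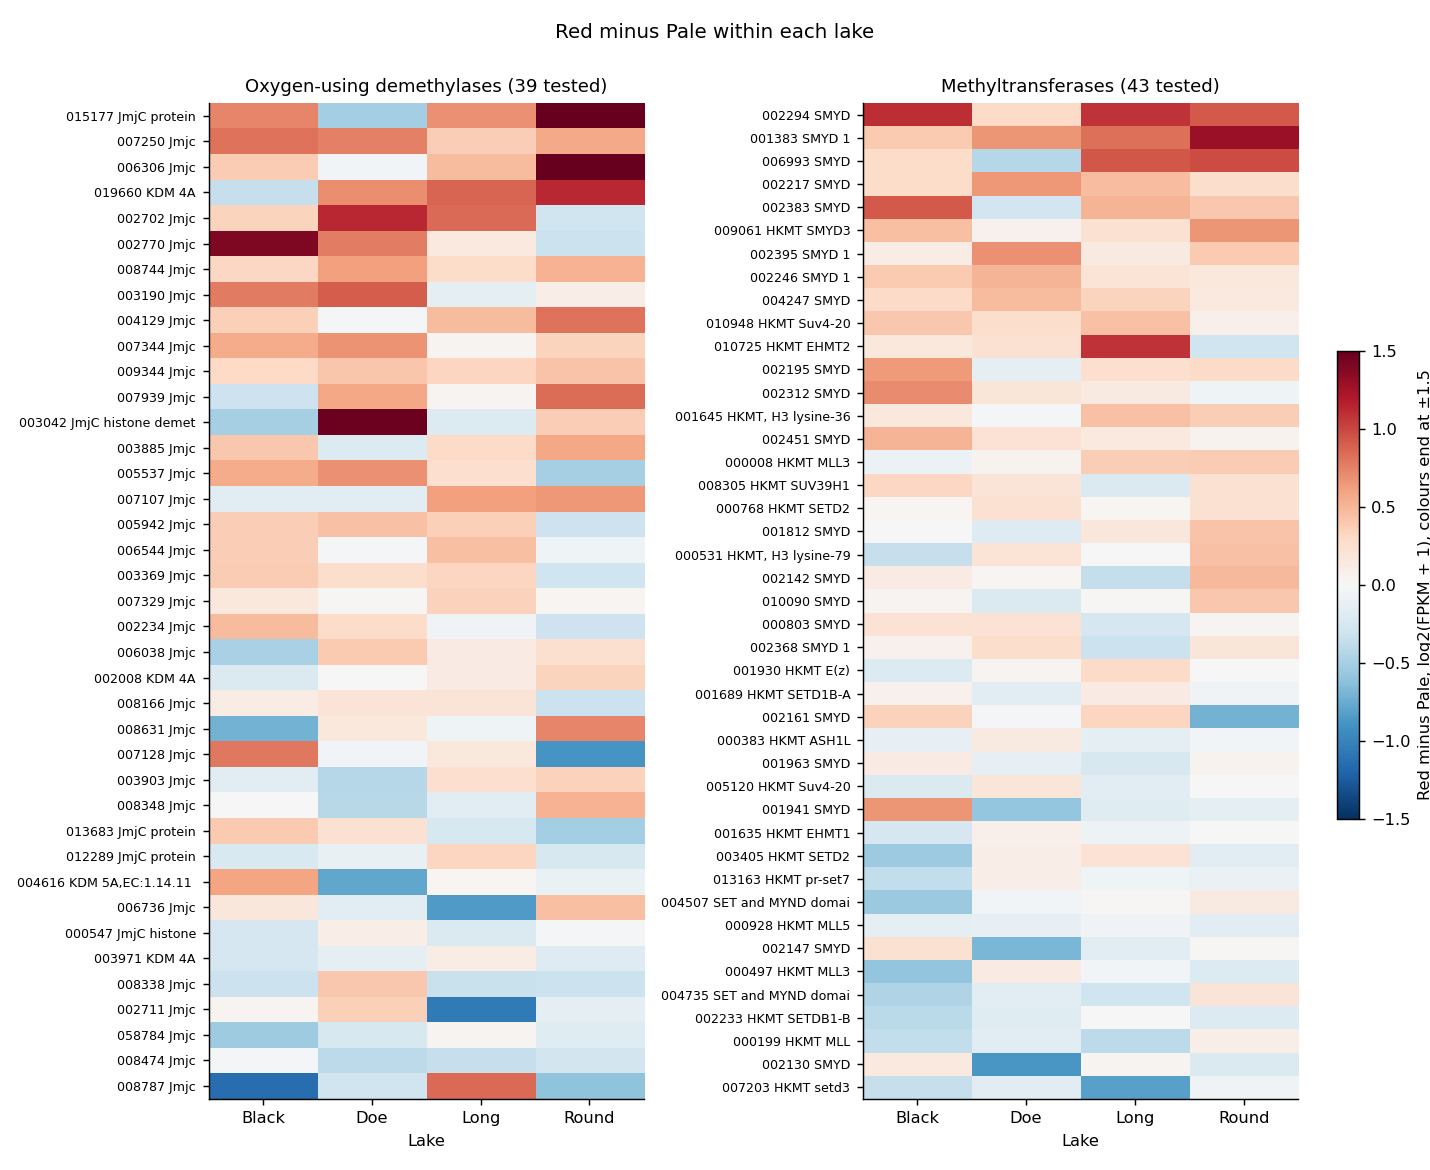
Red minus Pale within each lake on the log2(FPKM + 1) scale for the tested members, sorted by their mean difference, with red for higher in Red, blue for lower, and colours ending at ±1.5. Row labels give the identifier after Daplx7pEVm and a short name, in which Jmjc is the large demethylase name, KDM lysine-specific demethylase, SMYD SET and MYND protein and HKMT histone-lysine N-methyltransferase, and few rows keep 1 colour in all 4 lakes.

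The demethylase with the smallest p was Daplx7pEVm007250, a Jmjc histone demethylation protein. Its Pale libraries held 1.13, 1.04, 1.30 and 1.38 FPKM and its Red libraries 2.75, 2.45, 1.96 and 2.53, in the order of lakes used above. Every Red library exceeded every Pale one. The difference was 0.63 ± 0.16 (SE), with an unadjusted p of 0.0090 and an adjusted p of 0.297 in limma. Isoforms that carry the demethylase name themselves were also higher in Red in 4 of 4 lakes, at 1.045 FPKM on average in Pale and 1.94 in Red.

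A second gene of that name, Daplx7pEVm008744, had 2.84, 2.79, 2.10 and 2.42 FPKM in Pale and 3.76, 4.82, 2.75 and 3.92 in Red, in the order Black, Doe, Long, Round. Red was higher in each lake, but Long Red lay below Black Pale and Doe Pale. The difference was 0.43 ± 0.13, with an adjusted p of 0.343 in limma. Daplx7pEVm007344 (0.40 ± 0.19), Daplx7pEVm009344 (0.37 ± 0.18) and Daplx7pEVm007329 (0.14 ± 0.18) also had the higher value in Red in all lakes, at mean levels of 1.07 to 1.49 FPKM. The reverse held for Daplx7pEVm008474, with -0.26 ± 0.16, and 83.0% of its FPKM lay on an isoform of another, uncharacterized name. Its isoforms with a fitting name averaged 0.305 FPKM in Pale and 0.278 in Red, and were higher in Red in 3 of 4 lakes.

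**Figure D4:**
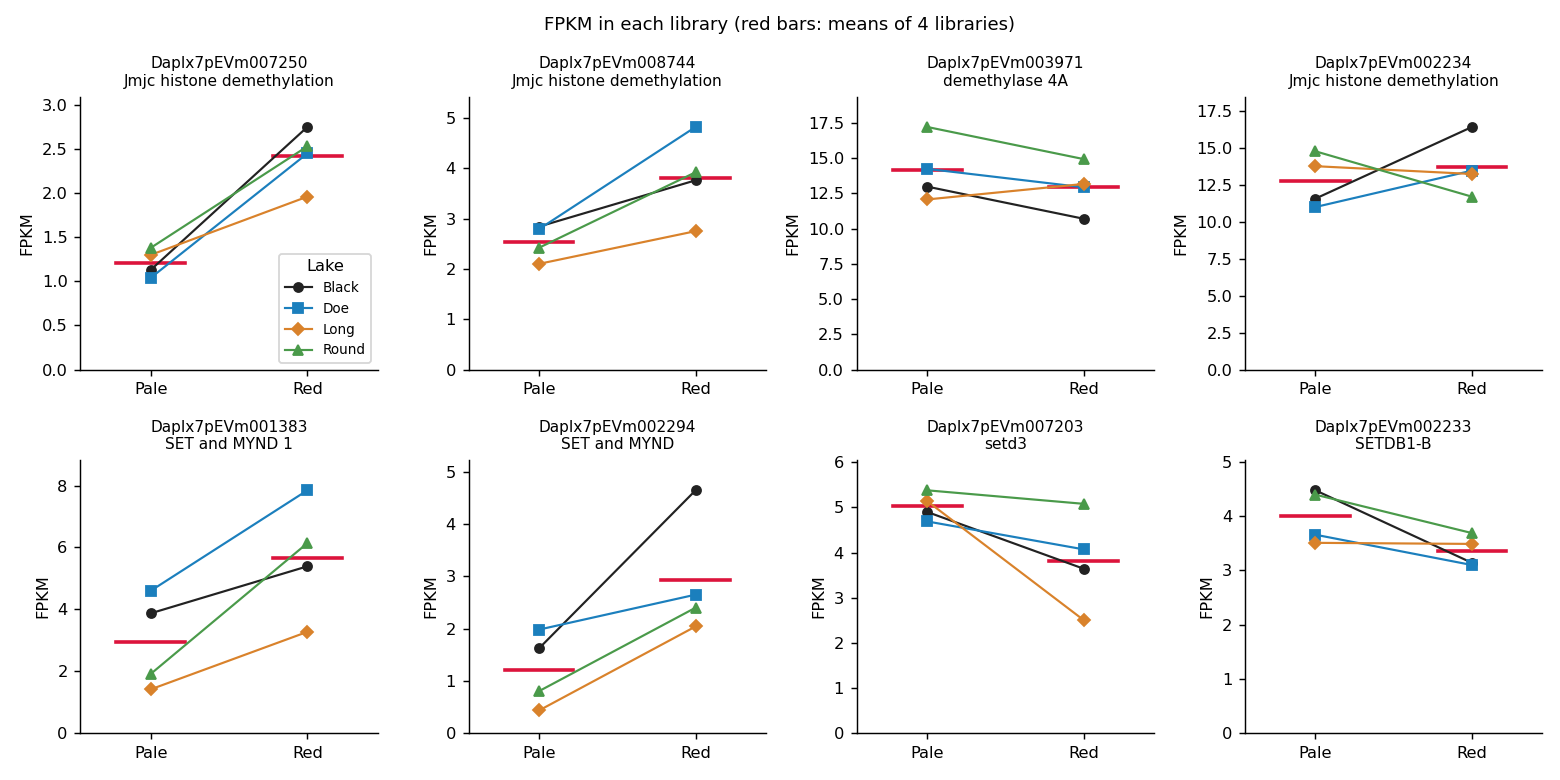
FPKM of 4 demethylases and 4 methyltransferases in each library, with Pale and Red of a lake joined by a line and red bars at the means of 4 libraries; the vertical axis starts at 0 in each panel. Red lies above Pale in every lake for Daplx7pEVm007250, Daplx7pEVm008744, Daplx7pEVm001383 and Daplx7pEVm002294, below it in every lake for Daplx7pEVm007203 and Daplx7pEVm002233, and the lakes are split for Daplx7pEVm003971 and Daplx7pEVm002234.

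The most abundant gene of the large Jmjc name had no common direction over the lakes. Daplx7pEVm002234 had 11.59, 11.02, 13.79 and 14.80 FPKM in the Pale libraries, and 16.45, 13.49, 13.26 and 11.72 in the Red ones. Red was higher in Black and Doe and lower in Long and Round, and the groups overlapped throughout (0.09 ± 0.18). Daplx7pEVm003190 had 3.78 and 4.18 FPKM in the Pale libraries of Black and Doe but 11.88 and 8.80 in those of Long and Round, and 7.20 to 10.65 in Red. Its Pale libraries therefore spread more widely between lakes than its Red ones, and its difference was 0.41 ± 0.22.

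A further 16 genes of the name had mean differences above 0 without a common direction in the lakes. The largest were Daplx7pEVm006306 (0.59), Daplx7pEVm002702 (0.51), Daplx7pEVm002770 (0.50) and Daplx7pEVm004129 (0.41). Daplx7pEVm006306 averaged 0.97 FPKM in Pale and 1.87 in Red, so it passed the level limit only through Red. Isoforms of other names held 60.9% of its FPKM, with 0.47 in Pale and 1.26 in Red, higher in Red in 4 of 4 lakes. Its isoforms with a fitting name averaged 0.50 and 0.61, higher in Red in 2 of 4 lakes. Between 0.17 and 0.29 lay Daplx7pEVm007939, Daplx7pEVm003885, Daplx7pEVm005537, Daplx7pEVm007107, Daplx7pEVm005942, Daplx7pEVm006544 and Daplx7pEVm003369. Under 0.10 were Daplx7pEVm006038, Daplx7pEVm008166, Daplx7pEVm008631, Daplx7pEVm007128 and Daplx7pEVm003903. Below 0, also without a common direction, were Daplx7pEVm008787 (-0.30), Daplx7pEVm058784 (-0.23), Daplx7pEVm002711 (-0.20), Daplx7pEVm008338 (-0.15), Daplx7pEVm006736 (-0.10) and Daplx7pEVm008348 (-0.01, above 0 under the other 3 scalings). None of these had an unadjusted p under 0.05.

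Some demethylase genes turned in direction from lake to lake. Daplx7pEVm002770 had Pale levels of 1.93, 2.26, 3.51 and 4.47 FPKM and Red levels of 6.74, 4.53, 4.01 and 3.36, in the order Black, Doe, Long, Round, so its difference went from 1.40 in Black to -0.33 in Round. Daplx7pEVm008787 ran from -1.15 in Black to 0.84 in Long. The low-level JmjC domain-containing protein Daplx7pEVm015177, at 0 FPKM in Round Pale and 2.56 in Round Red, ran from -0.51 in Doe to 1.83 in Round. The JmjC domain-containing histone demethylase Daplx7pEVm003042 ran from -0.50 in Black to 1.47 in Doe. With 1 library per lake and phenotype, whether such turns exceed the spread within a lake cannot be tested.

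The 3 tested genes named demethylase 4A had mean levels of 2.28 to 13.5 FPKM. Lysine-specific demethylase 4A belongs to a family known in mammals to act on histone H3 lysines 9 and 36. Its main gene, Daplx7pEVm003971, was the most abundant demethylase, with 12.97, 14.23, 12.06 and 17.20 FPKM in Pale and 10.69, 12.92, 13.16 and 14.92 in Red. Red was lower in Black, Doe and Round and higher in Long, a difference of -0.12 ± 0.13 that is smaller than its error and turned to 0.04 under quantile normalization. A second 4A gene, Daplx7pEVm002008, averaged 6.71 ± 0.67 FPKM in Pale libraries and 7.05 ± 1.09 in Red ones (SD, n = 4). A further 4A gene, Daplx7pEVm019660, had 3.18, 1.82, 0.29 and 1.41 FPKM in Pale and 2.29, 3.57, 1.37 and 4.28 in Red, higher in 3 of 4 lakes (0.59 ± 0.27).

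Demethylase 5A and 5B names, a family that acts on histone H3 lysine 4 in animals, covered 7 genes, of which only Daplx7pEVm004616 was tested, the others being at mean levels of 0 to 0.378 FPKM. Its level of 1.60 FPKM says little about demethylase 5A, because 98.8% of it lay on an isoform with an uncharacterized name. The JmjC domain-containing histone gene Daplx7pEVm000547 averaged 10.2 ± 0.69 FPKM in Pale libraries and 9.45 ± 0.69 in Red ones (SD, n = 4), a difference of -0.10 that turned to 0.06 under quantile normalization. The low JmjC domain-containing proteins Daplx7pEVm012289 and Daplx7pEVm013683 had differences of -0.06 and -0.03, both above 0 under each of the other 3 scalings.

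SET and MYND proteins are lysine methyltransferases with a zinc-binding MYND domain, and in vertebrates some act on histones and others on muscle or signalling proteins. Their summed FPKM was 54.3, 57.9, 43.2 and 50.1 in the Pale libraries and 70.1, 59.7, 50.6 and 64.9 in the Red ones. Red was higher in each lake, by a ratio of 1.03 in Doe and of 1.30 in Round, and Long was the lowest lake in Pale and in Red. Pale averaged 51.4 ± 6.32 and Red 61.3 ± 8.29 (SD, n = 4), with overlapping groups. Counting only isoforms that carry a fitting name, the Red library was higher in 3 of 4 lakes.

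Daplx7pEVm001383, named SET and MYND domain-containing protein 1 after a protein known from vertebrate striated muscle, had the smallest p of all members. Pale libraries held 3.87, 4.60, 1.41 and 1.91 FPKM and Red libraries 5.39, 7.85, 3.27 and 6.14. Red was higher in each lake, yet Long Red lay below Black Pale and Doe Pale. The difference was 0.79 ± 0.18, with an unadjusted p of 0.0055 and an adjusted p of 0.286 in limma.

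Daplx7pEVm002294, named SET and MYND, had 1.62, 1.98, 0.43 and 0.80 FPKM in Pale and 4.65, 2.65, 2.04 and 2.40 in Red, in the order Black, Doe, Long, Round. All Red libraries exceeded all Pale ones, and the mean ratio of 2.43 was the widest among the 4 members with an unadjusted p under 0.05. The difference was 0.85 ± 0.20, with an adjusted p of 0.286 in limma. Groups also did not overlap for Daplx7pEVm004247, with 1.26 to 1.63 FPKM in Pale and 1.91 to 2.23 in Red (0.31 ± 0.15), nor for SMYD3, Daplx7pEVm009061, with 0.43 to 0.89 FPKM in Pale and 0.96 to 1.92 in Red (0.35 ± 0.20). SMYD3 averaged 0.76 FPKM in Pale and 1.27 in Red, so it passed the limit of 1 FPKM only through its Red libraries. Daplx7pEVm002246 (0.32 ± 0.14), Daplx7pEVm002217 (0.42 ± 0.19) and Daplx7pEVm002395 (0.33 ± 0.16) were higher in Red in all lakes with overlapping groups. In Daplx7pEVm002395, 55.7% of the FPKM lay on isoforms of other names. Its isoforms with a fitting name averaged 1.19 FPKM in Pale and 1.27 in Red, higher in Red in 3 of 4 lakes.

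Markers of muscle, a tissue in which vertebrate SET and MYND proteins are known, mostly had lower values in Red. All 10 tested genes of the muscle list (troponin, titin, tropomyosin and muscle myosin names) had a difference below 0, with a median of -0.40, and the list's summed FPKM ran from 1256 to 1986 in Pale and from 967 to 1443 in Red, lower in Red in Black, Doe and Long and higher in Round (1390 in Pale, 1443 in Red). Of all genes tested, 38.5% were above 0 in the main setting. Under the other 3 scalings 9 of the 10 muscle genes were below 0. Their part in the values of the SET and MYND genes was not tested.

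Names tied to methylation of histone H3 lysine 4, a mark of active promoters and enhancers, had 5 tested genes, of which 1 had a value above 0 and 4 below. The median of -0.12 turned to 0.0041 under quantile normalization, with 3 genes above 0. MLL, Daplx7pEVm000199, had -0.21 ± 0.14 and SETD1B-A, Daplx7pEVm001689, -0.01 ± 0.13. MLL3 marks enhancers in mammals, and its 2 tested genes had differences of 0.18 ± 0.15 (Daplx7pEVm000008) and -0.18 ± 0.16 (Daplx7pEVm000497). In the latter, isoforms that carry the MLL3 name averaged 8.85 FPKM in Pale and 8.28 in Red, higher in Red in 2 of 4 lakes. Isoforms of other names, most often SynGAP, averaged 8.60 and 7.05, higher in Red in 1 of 4. MLL5, Daplx7pEVm000928, grouped here by its name, had 7.63, 7.57, 6.91 and 8.59 FPKM in Pale and 6.88, 6.84, 6.65 and 7.53 in Red, lower in each lake by a small amount (-0.12 ± 0.12) that turned to 0.0041 under quantile normalization.

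Names of the repressive histone H3 lysine 9 group (EHMT, SUV39H1 and SETDB1-B, with a SETMAR gene placed beside them) covered 19 genes, most of them low, and 4 were tested. SETDB1-B, Daplx7pEVm002233, had 4.48, 3.66, 3.51 and 4.40 FPKM in Pale and 3.14, 3.10, 3.49 and 3.69 in Red. Red was lower in each lake, by almost nothing in Long, and the difference was -0.20 ± 0.13. The tested EHMT1, EHMT2 and SUV39H1 genes had differences of -0.06, 0.29 and 0.13.

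Names of the histone H3 lysine 36 group, a mark of transcribed gene bodies, held 5 tested genes, 2 above 0 and 3 below, or 3 above 0 under the other scalings. Setd3, Daplx7pEVm007203, first described as an enzyme of this lysine and known in mammals as an actin histidine methyltransferase, had 4.90, 4.69, 5.14 and 5.38 FPKM in Pale and 3.64, 4.07, 2.50 and 5.08 in Red. It was lower in Red in each lake, most in Long and least in Round, and the difference of -0.35 ± 0.17 had an adjusted p of 0.471 in limma. The SETD2 genes Daplx7pEVm000768 and Daplx7pEVm003405 had 0.13 and -0.10, ASH1L, Daplx7pEVm000383, had -0.04, and Daplx7pEVm001645, named for lysine 36 and histone H4 lysine 20, had 0.24 ± 0.17. The single E(z) gene, Daplx7pEVm001930, the Polycomb enzyme for histone H3 lysine 27, averaged 8.23 ± 1.04 FPKM in Pale libraries and 8.42 ± 1.23 in Red ones (SD, n = 4), and the histone H3 lysine 79 gene, Daplx7pEVm000531, had a difference of 0.07 ± 0.17.

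The largest methyltransferase level belonged to a gene with a mixed annotation. Daplx7pEVm010948, named Suv4-20 after an enzyme of histone H4 lysine 20, had a mean of 104.5 FPKM, with 98.3, 82.9, 100.7 and 91.9 in Pale and 130.1, 99.5, 136.5 and 96.6 in Red. Red was higher in each lake, with the widest gaps in Black and Long (0.29 ± 0.13, adjusted p of 0.450 in limma). Of its 6 isoforms, 3 carried the Suv4-20 name and 3 the name of a nicotinic acetylcholine receptor subunit, and the latter held 48.0% of its FPKM. Isoforms named Suv4-20 summed to 49.1, 50.1, 49.8 and 51.9 FPKM in Pale and 69.1, 49.99, 73.7 and 41.2 in Red, so Red was higher in 2 of 4 lakes, whereas the receptor-named isoforms were higher in Red in 4 of 4. The second Suv4-20 gene, Daplx7pEVm005120, had a difference of -0.05 ± 0.14, and pr-set7, Daplx7pEVm013163, another enzyme of that lysine, had -0.11 ± 0.14.

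The sum of the class turned on this gene. All 80 methyltransferases summed to 240.3 ± 13.6 FPKM in Pale libraries and 269.3 ± 16.6 in Red ones (SD, n = 4), higher in Red in 4 of 4 lakes with a geometric mean ratio of 1.12. Without Daplx7pEVm010948 the sums were 146.9 ± 11.8 and 153.6 ± 11.4, higher in Red in 3 of 4 lakes with a ratio of 1.05. For the 36 histone-lysine names alone, the ratio went from 1.10 with the gene to 0.968 without it.

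**Figure D5:**
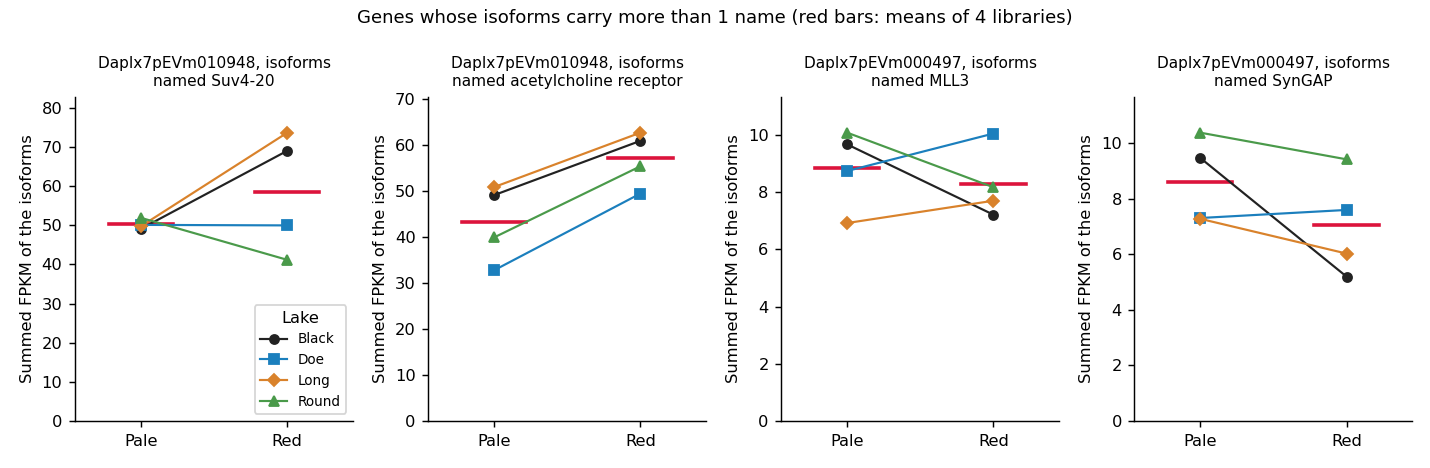
Summed FPKM of the isoforms of Daplx7pEVm010948 and Daplx7pEVm000497, split by the name the isoforms carry, with Pale and Red of a lake joined by a line and red bars at the means of 4 libraries. Isoforms named for the acetylcholine receptor are higher in Red in 4 of 4 lakes and those named Suv4-20 in 2 of 4. The panel named SynGAP holds all isoforms of Daplx7pEVm000497 with other names, of which SynGAP is the commonest.

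Mixed names were not confined to that gene. Of the 1137 isoforms of the 278 genes, 200 isoforms in 55 genes carried another name, most often uncharacterized. In Daplx7pEVm000497 the isoforms of other names, most often that of the Ras regulator SynGAP, held 47.7% of the FPKM. In 11 of the 82 tested genes, 7 of them SET and MYND, more than 50% of the FPKM lay on other names. With fitting isoforms only, the summed oxygen-using FPKM averaged 131.7 ± 10.1 in Pale libraries and 149.7 ± 9.43 in Red ones (SD, n = 4) and stayed higher in Red in 4 of 4 lakes.

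At the level of single isoforms 78 isoforms of 44 members were tested. In limma 0 of them passed an adjusted p of 0.05, beside 1 of 23583 isoforms in all (0.00424%), and 3 had an unadjusted p under 0.05, all higher in Red, beside 2.47% of all isoforms. They were Daplx7pEVm001383t2 of SET and MYND 1 (0.81 ± 0.23), Daplx7pEVm007107t4 of the large Jmjc name (0.89 ± 0.28) and Daplx7pEVm010948t1, which carries the receptor name (0.50 ± 0.18). The Jmjc isoform Daplx7pEVm007107t4 had 1.46, 0, 0.46 and 0.40 FPKM in Pale and 1.69, 1.68, 1.79 and 1.93 in Red. The groups did not overlap, while the whole gene had the higher value in Red in 2 of 4 lakes. This isoform averaged 0.58 FPKM in Pale and 1.77 in Red, so it passed the limit of 1 FPKM only through its Red libraries.

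Per degree of freedom, phenotype held a larger share of the sum of squares than lake in both classes, with no test of that difference. Lake and residual have 3 degrees of freedom each and phenotype has 1. For the tested oxygen-using genes the shares per degree of freedom were 14.0% for lake, 20.6% for phenotype and 12.5% for the residual. For the methyltransferases they were 17.4%, 24.4% and 7.79%, and for all genes tested 16.2%, 15.8% and 11.9%. The F test over lakes in limma called 0 members and 0 of 12865 genes (0.0%) at an adjusted p of 0.05, and 1 member beside 9.9% of all genes at an unadjusted p under 0.05. Against the mean of the other lakes, 5 genes (0.0389%) were called in Black and 0 (0.0%) in Doe, Long and Round, and no member was among them.

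The 1 member was Daplx7pEVm001383, the SET and MYND 1 gene, whose difference from the other lakes was 0.70 ± 0.21 in Doe and -0.81 ± 0.21 in Long, with an unadjusted p of 0.0245 over lakes. Both phenotypes had their highest value in Doe and their lowest in Long. Next by p were Daplx7pEVm003885 and Daplx7pEVm003190 of the large Jmjc name and the SET and MYND genes Daplx7pEVm002130, Daplx7pEVm002312 and Daplx7pEVm002294, none under 0.05. The value of 7.01 FPKM in Doe Pale set Daplx7pEVm002130 apart, against 1.87 to 3.36 in the other 7 libraries. Daplx7pEVm002312 was highest in Round in both phenotypes, with 2.86 FPKM in Pale and 2.69 in Red, but 80.3% of its FPKM lay on isoforms of other names.

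Partners and related enzymes, collected by name, passed no test either. Their counts above 0 stand beside 38.5% of all genes. Of 15 tested partners of methyltransferase complexes, 8 were above 0 and 7 below, with suz12, the E(z) partner Daplx7pEVm005564, averaging 4.76 ± 0.20 FPKM in Pale libraries and 6.18 ± 0.82 in Red ones (SD, n = 4). Lysine-specific histone demethylase 1A, Daplx7pEVm004024, which uses flavin and is no JmjC enzyme, had 4.998 ± 0.43 and 5.12 ± 0.45. Among enzymes that make or clear the cosubstrates, 4 of 15 were above 0 with a median of -0.16. Among histone acetylation enzymes 5 of 21 were, with a median of -0.05, which turned to 0.01 to 0.03 with 12 above 0 under the other 3 scalings. A list for readers of methylated histones took in chromodomain, PHD finger and all Tudor names, and a Tudor name alone does not show histone reading. Of its 42 tested genes 31 were above 0 and 11 below, yet the list's summed FPKM was lower in Red in each lake. It was 995.1, 661.2, 520.0 and 479.0 in Pale and 457.6, 471.6, 409.9 and 433.5 in Red. The abundant Tudor and KH domain genes Daplx7pEVm020519 (-0.96 ± 0.23), Daplx7pEVm025253 (-1.44 ± 0.36) and Daplx7pEVm025171 (-1.01 ± 0.27) were lower in Red in each lake, with adjusted p of 0.288 to 0.312 in limma. Of 10 other oxygen-using hydroxylases 5 were above 0 and 5 below, yet the list's summed FPKM was higher in Red in each lake. It ran from 56.7 to 81.9 in Pale and from 79.6 to 96.0 in Red. Daplx7pEVm014955 averaged 7.46 FPKM in Pale and 25.3 in Red (1.70 ± 0.33). Its adjusted p of 0.271 in limma was the smallest of all genes tested. Daplx7pEVm017444 averaged 1.14 and 3.57 (1.04 ± 0.29). Of the 10, 3 were higher in Red in all 4 lakes and 2 lower. Values were above 0 for 2 of 4 DNA methyltransferases and for the 1 arginine methyltransferase. An unadjusted p under 0.05 in limma was reached by 7 genes of these lists upward and by 7 downward, beside 2.89% and 9.29% of all genes. Upward were 1 of the 15 complex partners, 2 of the 10 hydroxylases, 3 of the 42 reader genes and 1 of the 21 acetylation enzymes. Downward were 5 of the 42 reader genes and 2 of the 21 acetylation enzymes.

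Tissue markers also differed in value between phenotypes, and their part in the differences above was not tested. Of all genes tested, 38.5% were above 0. Germ line and embryo markers were above 0 in 15 of 17 tested genes, with summed FPKM of 102.1 to 139.1 in Pale and 113.5 to 147.5 in Red, higher in Red in 4 of 4 lakes. That list held vasa, piwi, argonaute 3, nanos and Tudor domain-containing names. It left out the Tudor and KH domain genes named above, which were lower in Red in each lake. Dividing-cell markers were above 0 in 11 of 14, with sums of 173.7 to 270.7 in Pale and 210.5 to 296.9 in Red, also higher in 4 of 4 lakes. Gut markers were below 0 in 60 of 82, with sums of 4072 to 8780 in Pale and 4163 to 6415 in Red, higher in Red in 1 of 4 lakes. Yolk markers were below 0 in 7 of 9, but their sum was higher in Red in 3 of 4 lakes, at 1351 to 1742 in Pale and 957.0 to 2194 in Red. Eye markers were above 0 in 16 of 29, with sums of 1329 to 3343 in Pale and 1556 to 2673 in Red, higher in Red in 2 of 4 lakes.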

How the data were processed

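Per the labels' protocols, RNA of whole adults was extracted with Trizol, then depleted of ribosomal RNA and made into strand-specific libraries. The authors deposited FPKM per gene and per isoform with 2 decimals, and the isoforms of a gene add up to its FPKM within 0.04. Trimmomatic, which trims reads, is named in the submitters' processing notes. The aligner, quantification tool and genome build are not given in the sources used here. The 8 deposited fold change columns were not used. Of the gene identifiers, 0 matched the RefSeq gene table, so no sequences or coordinates are given.

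Genes or isoforms with a mean of at least 1 FPKM were analysed as log2(FPKM + 1) with limma 3.58.1 in R 4.3.3, with a trend of variance on mean, phenotype as the term tested and lake as the block. Tests were two-sided, with Benjamini-Hochberg adjustment over all features tested and a threshold of 0.05. Lakes were tested by an F test, and each was also set against the average of the other 3. The procedure was tested on simulated data. Classes were described by counts and medians beside all genes, without a set test. No sample stands for a repeated lake and phenotype, so p-values rest on the spread of Red minus Pale over lakes. In limma the spread of a gene is drawn toward that of genes of similar mean level. The standard errors and p-values therefore rest partly on other genes.

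Lake is the pairing factor in the labels. Deviations from phenotype means of the Red and Pale library of a lake correlated over all genes tested at 0.485 (Black), -0.015 (Doe), -0.021 (Long) and 0.214 (Round).

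The members and lists were chosen with earlier results of these data known. Named are each tested oxygen-using gene, methyltransferases of 1 sign in all 4 lakes (up to 8 per direction by p), the 3 highest of each class, the 6 smallest lake p, the 4 widest ranges over lakes, up to 4 isoforms, and up to 4 genes of each related list. The other tested genes of the groups by histone residue are also named, after their values were seen. Alternatives covered scaling, pseudocount, filter, each lake left out, no block and no trend. Splitting by isoform name, leaving out the largest gene and the bands of level were chosen after seeing the data.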

Additional observations from a re-analysis of the deposited data

Results flagged for a closer look

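Within 112 groups of 4 libraries, 8 held a library whose gap to the nearest other exceeded Dixon's 95% critical value, while chance alone flags about 1 in 20 groups. For genes of the large Jmjc name these were Daplx7pEVm007107 in Red (9.15 FPKM in Round against 4.64 to 5.37 in the other lakes), Daplx7pEVm007939 in Pale (1.57 in Long against 1.01 to 1.10) and Daplx7pEVm008631 in Red (2.63 in Round against 0.75 to 0.92). The JmjC domain-containing protein Daplx7pEVm013683 had 0.62 FPKM in Long Red against 1.09 to 1.15. Among methyltransferases, SMYD3 (Daplx7pEVm009061) had 0.43 FPKM in Black Pale against 0.84 to 0.89. The SET and MYND gene Daplx7pEVm002130 had 7.01 FPKM in Doe Pale against 2.07 to 2.33, and Daplx7pEVm002312 had 2.86 in Round Pale against 0.94 to 1.01. The summed FPKM of the oxygen-using demethylases was 155.4 in Round Pale, above the other Pale libraries. Most of these genes lie near 1 or 2 FPKM, where a library's depth, unknown here, limits precision.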

How the results depend on the processing

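Across all settings tried, 0 members were called for Red against Pale, for lakes or as isoforms. Without the replicate block 0 genes were called, 1 isoform was, and the smallest adjusted p of a member was 0.343, so the pairing changed no call. Over all genes the lake F test called 1 gene with a pseudocount of 5, and the 1 isoform called for Red against Pale became 0 whichever lake was left out. The cause was not tested for any of these. The oxygen-using median of 0.14 became 0.25 under quantile normalization, 0.23 with a pseudocount of 0.1, 0.067 with a pseudocount of 5 and 0.031 without a filter, and 0.11 to 0.17 with a lake left out. The methyltransferase median of 0.06 became 0.115 with size factors, 0.15 under quantile normalization and 0.13 when rescaled without the largest gene, and 0.0059 to 0.086 with a lake left out, the lowest being without Round. The methyltransferase median was 0.032 without a filter, where the median of all genes was -0.031. It reversed to -0.11 among the 7 methyltransferases with a mean of at least 5 FPKM, a setting that drops every SET and MYND gene. The log2 ratios of summed FPKM, 0.17 and 0.16 as reported, became 0.26 and 0.28 in the oxygen-using class, and 0.26 and 0.27 in the methyltransferases, with size factors and without the largest gene of the table. It was 0.084 for oxygen-using genes of at least 5 FPKM and 0.065 for methyltransferases without Daplx7pEVm010948. Under quantile normalization MLL5 (Daplx7pEVm000928) reversed to 0.0041, Daplx7pEVm003971 to 0.04 and Daplx7pEVm000547 to 0.06. Of 54 named members, 36 kept their sign in all settings and 18 changed it in at least 1, none of them above 0.28 in size.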
